A study of Mus musculus with 2 samples.

Results

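The promoters described here belong to 195 mouse genes whose start regions were rich in CpG, yet carried no DNase-seq peak in embryonic retina. They were chosen from 20807 autosomal protein-coding genes of the GENCODE annotation by 2 measures. The first was a CpG observed/expected ratio of at least 0.5 in the 500 bp on either side of the gene's 5′ end, which 11386 genes met. This ratio divides the number of CpG dinucleotides by the number that the C and G content alone would give. The second was the absence of any peak within 1 kb of any annotated transcription start site (TSS) of the gene in either library, which left 195 of the 11386 CpG-rich genes, or 1.71% (exact Clopper-Pearson 95% interval 1.48 to 1.97). Over all autosomal protein-coding genes the share without a promoter peak was 26.3%. The peak lists themselves chose the 195, so the absence of a peak is a description of them and supports nothing further.

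The series holds 1 group. It is retina from healthy embryos of the mouse strain labelled B6NCrl at embryonic day 14.5, with male and female tissue pooled, in 2 biological replicates, labelled as separate biosamples of 1 donor label. No treatment and no allele is named in the labels, and there is no second tissue or age. The lists held 165269 distinct peaks in replicate 1 and 219308 in replicate 2, with 145732 and 183723 hotspots, which are broader regions of cutting. Replicate 1 was sequenced on an instrument model that replicate 2 was not, so instrument and replicate cannot be told apart. Read numbers are not in the files, and the depth is therefore unknown. Whole retina mixes cell types, and a site open in few cells cannot be told apart from a site open weakly in many. Marker lists check the label only weakly here, since most CpG-rich promoters had a peak whatever their tissue. All 37 CpG-rich genes on a list of retinal progenitors and young neurons had one in both libraries, as did all 4 endothelial, both pigment epithelium and 5 of 6 lens genes.

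DNase I cuts DNA where nucleosomes have been displaced, and CpG-rich promoters are in most tissues free of nucleosomes around the start site, even at genes with little transcription. Exceptions are known. Promoters of germline genes are methylated in somatic cells from early development on, and the transcription factor E2F6 and a dimer of MGA and MAX, which binds the E-box CACGTG, take part in their silencing. Hox genes outside their domains are covered by Polycomb proteins, which compact chromatin. Tandem gene families and satellite repeats form another kind of exception for any sequencing assay, since a short read from them may fit several places in the genome.

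The sequences below give 150 bases immediately upstream of the 5′ end of 6 of the 195 genes, on the strand of the gene and with each CG in capitals. Slc25a31, Sycp1 and Ddx4 are shown for the germline genes, Hoxc12 for the Hox genes, Hist1h2ap for tandem histone genes and Gm10718 for a satellite-like repeat. All letters come from the RefSeq sequence of GRCm38, the assembly also called mm10.
Slc25a31, chr3:40708705-40708854, + strand: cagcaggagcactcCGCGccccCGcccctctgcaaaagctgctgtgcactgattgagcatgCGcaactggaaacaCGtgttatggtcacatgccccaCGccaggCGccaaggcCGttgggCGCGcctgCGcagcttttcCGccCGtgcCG
Sycp1, chr3:102936101-102936250, − strand: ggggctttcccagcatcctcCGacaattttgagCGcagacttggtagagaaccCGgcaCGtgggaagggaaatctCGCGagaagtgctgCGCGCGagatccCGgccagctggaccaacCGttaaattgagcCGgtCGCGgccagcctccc
Ddx4, chr13:112652476-112652625, − strand: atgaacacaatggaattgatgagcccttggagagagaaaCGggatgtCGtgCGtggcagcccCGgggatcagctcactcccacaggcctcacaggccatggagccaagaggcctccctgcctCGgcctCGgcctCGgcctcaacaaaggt
Hoxc12, chr15:102936607-102936756, + strand: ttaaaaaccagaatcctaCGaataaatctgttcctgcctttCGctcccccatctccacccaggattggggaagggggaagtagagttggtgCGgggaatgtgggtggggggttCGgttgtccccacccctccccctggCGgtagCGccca
Hist1h2ap, chr13:21833508-21833657, − strand: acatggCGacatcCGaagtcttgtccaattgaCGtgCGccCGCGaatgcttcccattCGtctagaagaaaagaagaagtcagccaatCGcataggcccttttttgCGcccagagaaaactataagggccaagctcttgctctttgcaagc
Gm10718, chr9:3023397-3023546, + strand: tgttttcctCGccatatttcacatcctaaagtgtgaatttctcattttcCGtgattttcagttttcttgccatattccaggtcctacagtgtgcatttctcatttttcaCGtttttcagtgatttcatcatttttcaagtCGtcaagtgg
In these stretches Slc25a31 and Sycp1 hold 14 CpGs each, Hist1h2ap 9, Ddx4 7, Hoxc12 6 and Gm10718 4. The GC content runs from 66.0% in Slc25a31 to 36.7% in Gm10718, so a high CpG ratio does not by itself mean a GC-rich promoter.

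The share of promoters without a peak fell along the CpG scale that defined the set. It was 86.8% of genes below a ratio of 0.1 and 14.8% between 0.4 and 0.5. Above the minimum it was 4.66% of 1567 genes between 0.5 and 0.6, 2.82% of 2447 between 0.6 and 0.7, and 0.325% of 1844 at 0.9 and over. The 195 promoters therefore crowd at the lower end of the CpG-rich range. Their median ratio was 0.622, with quartiles of 0.561 and 0.717 and a highest value of 1.00 at BC107364, against a median of 0.761 at the 11118 CpG-rich promoters with a peak in both libraries. Their median GC content was 55.0%, against 60.4%, and the median number of CpGs in the window was 46 against 68.

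**Figure D1:**
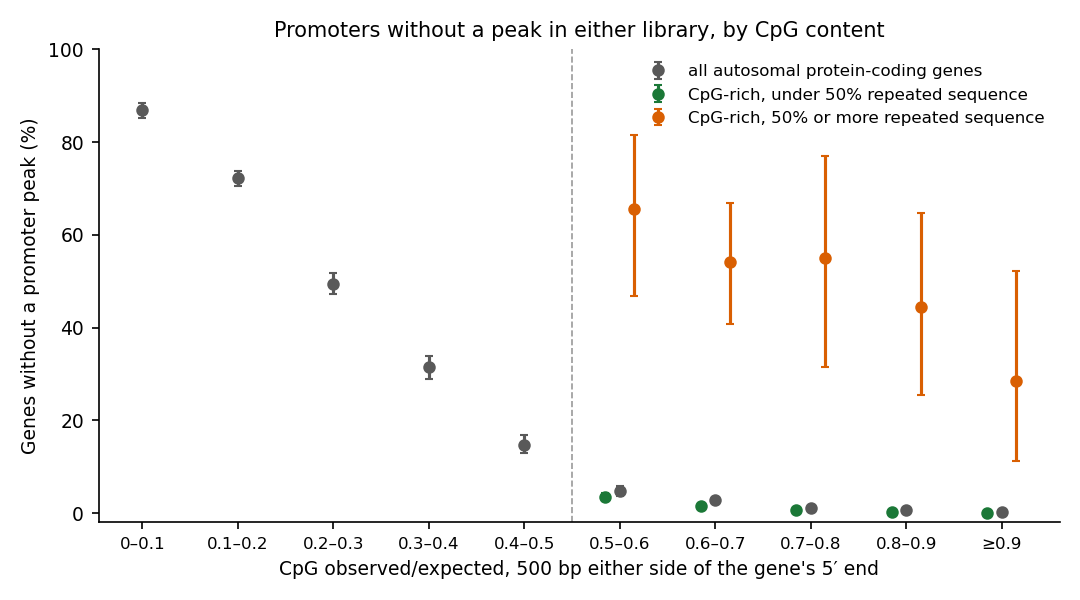
Share of autosomal protein-coding genes without a promoter peak in either library (y axis, percent) in bins of CpG observed/expected (x axis), with exact 95% intervals as bars. The dashed line is the minimum of 0.5. Grey points fall from 86.8% to 0.325%, while the orange points, windows of which 50% or more is repeated sequence, lie between 28.6% and 65.6%.

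Genes at the edges of both measures show how the set was bounded. Just above the CpG minimum stood the predicted gene Gm20537 at 0.502 and Pbp2 at 0.504. Just under it, and so outside the set, stood Nlrp4c at 0.49988 and the keratin gene Krt25 at 0.498, both also without a peak. On the distance measure, Hoxc6 was inside the set with its nearest peak at 1019 bp in both libraries. Hist2h3c2, a histone H3 gene, was outside it with peaks at 922 and 862 bp. A further 18 CpG-rich genes had a promoter peak in replicate 1 alone and 55 in replicate 2 alone. Ranked by score within the library, their best promoter peaks stood at a median percentile of 29.3 for the 18 and 51.7 for the 55. At the 11118 genes with a peak in both libraries the medians were 96.3 and 97.1.

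Hotspots gave nearly the same picture as peaks at these promoters. A hotspot lay within 1 kb of a TSS at 4 of the 195 genes, or 2.05% (interval 0.562 to 5.17), and the 4 were the same in both libraries. Across all CpG-rich genes the share was 98.3%, and across all autosomal protein-coding genes 74.0%. Among 5277 CpG-poor genes without a peak it was 54, or 1.02%. Hotspots and peaks were called from the same reads, so this does not check the absence of peaks independently.

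The 4 genes with a hotspot were Hsf5, Prr23a3, Fam178b and Hoxc6, and at each the hotspot began far from the start site. Hsf5 encodes a heat shock factor of the testis. Its hotspot came no closer than 875 bp from a TSS in replicate 1 and 689 bp in replicate 2, with −log10 false discovery rates of 4.77 and 100. At Prr23a3 the nearest edge lay at 980 bp in both libraries, with deposited values of 4.60 and 3.57, the weakest of the 4 genes in both libraries. At Fam178b it lay at 929 and 866 bp and at Hoxc6 at 913 and 896 bp, and both genes reached the ceiling of 100 in both libraries. The peaks nearest to these 4 genes lay between 1019 and 1319 bp from a TSS, just outside the limit. No gene of the 195 had a hotspot within 500 bp of a TSS (upper limit of the interval 1.87%), and 34 had one within 2 kb.

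The surroundings of the promoters varied widely. The nearest peak lay at a median of 10772 bp in replicate 1 and 6496 bp in replicate 2, with quartiles of 3196 and 19502 bp in replicate 2. A peak anywhere between the start and end of the gene was found in both libraries at 48 of the 195 genes (24.6%). At CpG-poor genes without a promoter peak the share was 18.3%. It was 96.4% at the 11118 genes with a peak in both libraries at the promoter. The gene span takes in the start, where the 11118 had a peak nearby by definition and the 195 had none. That contrast therefore follows largely from the choice of genes. In 76 of the 195 genes no peak lay within 10 kb in either library, and in 17 none lay within 100 kb. All 17 had windows made mostly of repeated sequence. The farthest were Gm21953, at 437322 bp in both libraries, and Gm21586, at 431798 and 405618 bp.

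**Figure D2:**
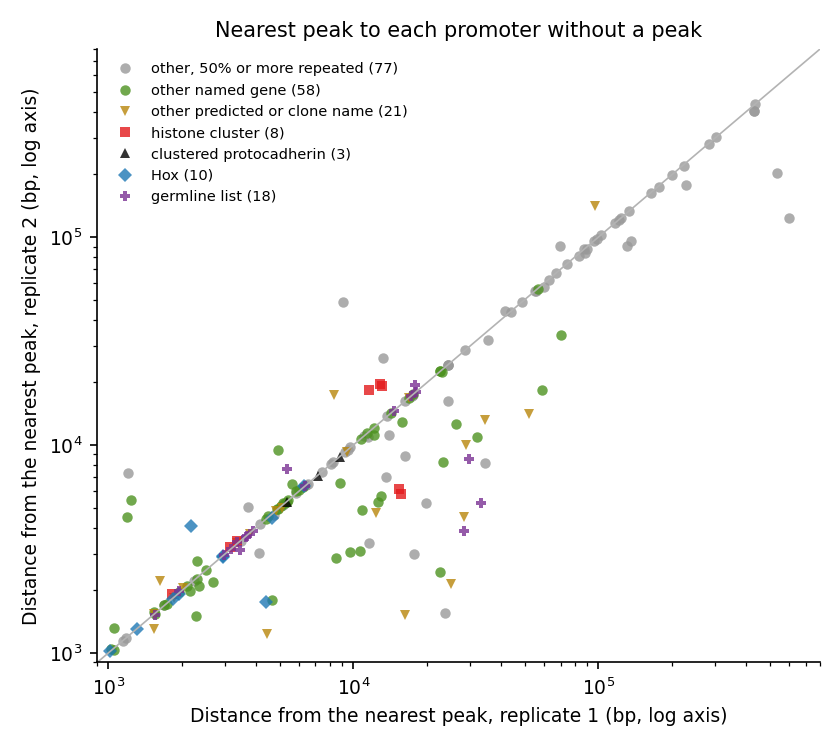
Distance from the nearest TSS of each of the 195 genes to the nearest peak in replicate 1 (x axis) and replicate 2 (y axis), in bp on log axes. Each symbol is 1 gene, by gene group, and the line marks equal distance. Hox genes lie at 1019 to 6339 bp, and the points beyond 100 kb in both libraries are windows of repeated sequence.

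Repeated sequence was far more common in these windows than at other CpG-rich promoters. Each window was read as overlapping stretches of 32 bases, and a stretch counted as repeated if it occurred more than once in the genome. In 83 of the 195 windows (42.6%, interval 35.5 to 49.8) at least 50% of the stretches were repeated. Among the 11118 genes with a peak in both libraries this held for 72, or 0.648%. CpG-poor genes showed a difference too, with 921 of 5277 (17.5%) without a peak and 1.67% of those with a peak in both libraries. Turned around, 51.6% of the 161 CpG-rich windows with 50% or more repeated sequence had no peak, against 0.998% of the other 11225. The share without a peak was 0.773% where under 10% was repeated, 4.82% between 10 and 50%, 23.2% between 50 and 90%, and 92.4% (61 of 66 genes) at 90% and over. The interval of the 83 windows counts genes as separate, yet some of these windows resemble one another. Entpd4 and Entpd4b, for example, had equal CpG ratios (0.805) and GC contents (61.0%). That interval may therefore be too narrow. How reads that fit several places were treated is not given in the sources used here, and the part of repeated sequence in the absence of peaks was not tested.

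**Figure D3:**
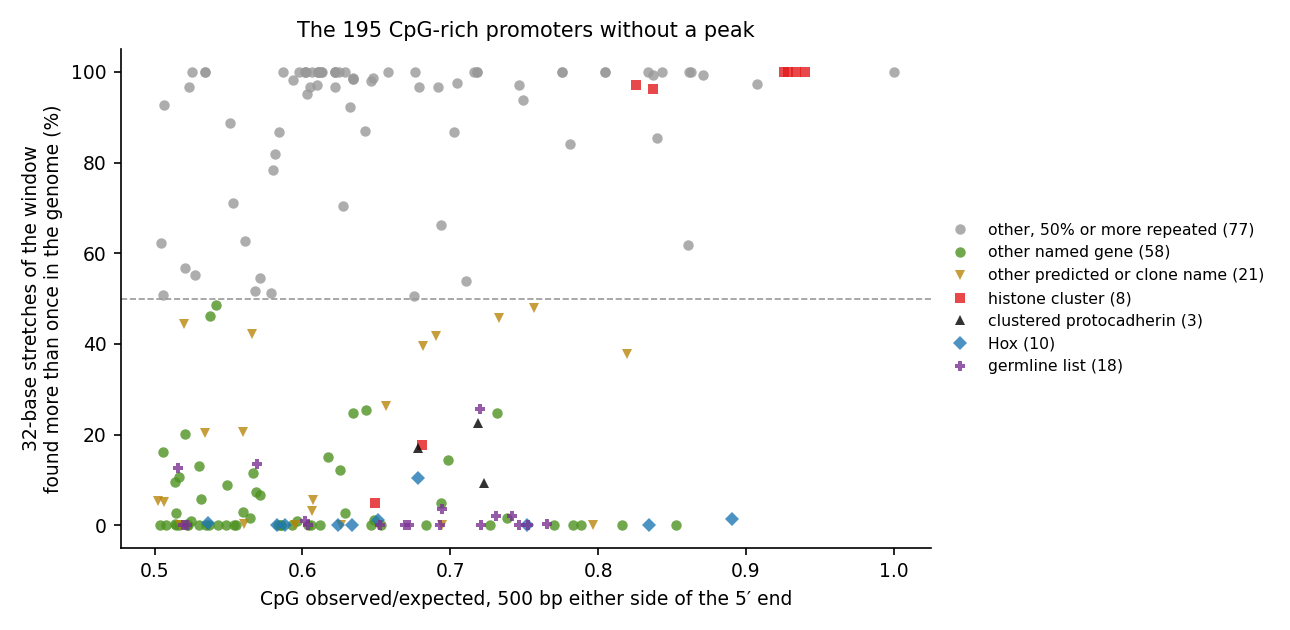
CpG observed/expected (x axis) and the percent of 32-base stretches found more than once in the genome (y axis) for the 195 windows, 1 symbol a gene, by gene group. The dashed line is at 50%. The upper cloud holds 77 genes in grey and 6 histone genes in red, while the germline list and the Hox genes lie at or under 25.6%.

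Many of the repeated windows sat side by side. Runs of 3 or more neighbouring protein-coding genes, all in the set, took in 42 genes in 8 runs. The longest, on chromosome 4 between positions 88773834 and 88805531, held 12 genes around Ifnz, which encodes the interferon limitin, with 11 predicted genes. The nearest peak to Ifnz was at 1185 bp in both libraries. A run of 6 predicted genes, Gm10718 to Gm10722 and Gm11168, lay at the start of chromosome 9 between 3000922 and 3023547. The window of Gm10718 was 99.2% soft-masked as repeat and its stretches occurred a median of 25 times in the assembly, although its GC content was 34.6% and its CpG ratio of 0.705 rested on 20 CpGs. Chromosome 14 held more of the 195 genes than any other autosome, 24, and 21 of these had repeated windows.

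Histone genes with repeated windows had the highest median CpG ratio of the gene groups, 0.927. Of 65 CpG-rich genes in the histone clusters, 8 had no peak (12.3%, interval 5.47 to 22.8), beside 1.71% of all CpG-rich genes. Replication-dependent histone genes encode the nucleosome proteins made during DNA synthesis. A run on chromosome 13 between 21810197 and 21833743 held 6 of them: Hist1h2bq, Hist1h2ao, Hist1h4m, Hist1h4n, Hist1h2ap and Hist1h2br. Their windows were 96.2% to 100% repeated, and the stretches of Hist1h2ap occurred a median of 6 times. The ratios of these 6 lay between 0.826 and 0.940. The other members of the group, Hist1h2aa and Hist1h2ba, are a divergent pair known from the testis. Their windows were 4.95% and 17.6% repeated, and their nearest peaks were at 15294 and 15600 bp in replicate 1 and at 6117 and 5811 bp in replicate 2.

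The remaining 112 promoters, each under 50% repeated, were compared with the 11046 CpG-rich promoters of the same kind with a peak in both libraries. They were more often of genes with a single exon (23.2% against 3.01%), with a single annotated TSS (51.8% against 11.9%) and with a Gm or Rik symbol (16.1% against 3.25%). Gm and Rik symbols mark predicted and clone-based genes, and clone accession names are not counted in that share. A peak near any TSS kept a gene out of the set, so the rule itself favours genes with few TSSs. Transcripts of the best support level were annotated at 68.8% against 93.2%. In 9 genes (8.04%) the annotated 5′ end had no 5′ UTR, against 1.12%. A head-to-head neighbour within 1 kb was found at 3.57% against 11.9%, and the 5′ end lay inside another protein-coding gene at 21.4% against 12.8%. CpG-poor genes without a peak and under 50% repeated, 4356 in all, had several of the same traits: a single TSS at 40.3%, a Gm or Rik symbol at 13.1%, no 5′ UTR at 8.40% and the best support level at 54.2%. They had a single exon at 10.8%, a head-to-head neighbour at 0.620% and a 5′ end inside another gene at 9.60%. RefSeq starts were found for 115 of the 195 genes, 85 of them with a start within 100 bp of the GENCODE 5′ end, and no peak of either library lay within 1 kb of any RefSeq start of these genes. Among other CpG-rich genes 8560 of 8672 had a peak there. The rule had already divided the genes by peaks near GENCODE starts. Both counts therefore follow largely from it and are no independent check. The windows of 14 of the 195 genes, 6 of them among the 112, overlapped that of another gene of the set, as at the neighbours Lypd4 and Dmrtc2, so these are not separate regions.

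A germline and meiosis list, with 18 of the 195 genes, had the most members of the lists defined by function. The list takes in genes of meiotic chromosomes, of transposon silencing through piRNAs and others used chiefly in germ cells. It is not complete: the germ cell genes Hsf5, Zfp541 and Spata16 are in the set but not on the list. Of 41 CpG-rich genes on the list, 18 had no peak (43.9%, interval 28.5 to 60.25), 20 had a peak in both libraries and 3 in replicate 2 alone. Over all CpG-rich genes the share without a peak was 1.71%. The list was drawn up with earlier results of these data known. Repeated sequence was scarce here: the highest share in the 18 windows was 25.6%, at Rpl10l, and the median was 0%.

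Proteins of the synaptonemal complex, which joins homologous chromosomes in meiosis, were encoded by Sycp1, Sycp3, Syce1 and Tex12. At Sycp1 the nearest peak lay at 29618 bp in replicate 1 and 8593 bp in replicate 2, and at Sycp3 at 17904 and 19464 bp. Syce1 had its nearest peaks at 17964 and 17984 bp and Tex12 at 6345 and 6365 bp. Hormad1 encodes a protein of the chromosome axis, Majin a protein that tethers telomeres to the nuclear envelope and Fkbp6 a chaperone-like protein of spermatocytes. Hormad1 had peaks no nearer than 5332 and 7672 bp, Fkbp6 no nearer than 3150 and 3170 bp, and Majin, the closest of the 18, at 1543 and 1523 bp.

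A further group makes or uses piRNAs: Ddx4, Mael, Asz1, Tdrd1, Rnf17 and Mov10l1. Ddx4 encodes the germ cell helicase VASA, and its nearest peaks lay at 3676 and 3656 bp. Mael had none nearer than 14709 and 14629 bp. Mov10l1, the helicase that starts piRNA processing, had none nearer than 28184 bp in replicate 1 and 3844 bp in replicate 2, so the libraries differ here. Tdrd1 stood out for a strong neighbour: its nearest peaks, at 3884 and 3864 bp, ranked at the 99.7th and 98.4th percentile of their libraries. The other genes were Stk31, a kinase-like tudor protein, Sohlh2, a transcription factor of young germ cells, and 3 genes that encode testis forms of housekeeping proteins. These 3 were the intronless genes Rpl10l, for a ribosomal protein, and D1Pas1, for a DEAD-box helicase, and Slc25a31, for an adenine nucleotide carrier of mitochondria.

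The germline genes with a peak in both libraries had median ranks slightly below those of open promoters in general. At the 20 list genes with a peak in both libraries, the best promoter peak had a median percentile rank of 93.1 in replicate 1 and 94.5 in replicate 2, with lowest values of 64.0 and 65.5, beside 96.3 and 97.1 over all CpG-rich genes with a peak in both libraries. Dazl, an RNA-binding protein of germ cells, stood at 97.9 and 98.5. Stag3, a meiotic cohesin subunit, stood at 99.6 and 99.5, and Msh5, a meiotic mismatch repair protein, at 99.9 and 99.96. The CpG ratios of the groups overlap, as at Dazl with 0.734 and Ddx4 with 0.742. Sycp2 had a peak in replicate 2 alone, at rank 33.7, as did Zfp42 at 18.9 and Dpep3 at 7.45.

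The E-box CACGTG was found in many of these promoters. Motifs were searched as exact letters on both strands from 250 bp upstream to 50 bp downstream of the 5′ end. CACGTG was present in 10 of the 18 germline promoters without a peak (55.6%, interval 30.8 to 78.5), in 5 of the 20 with a peak in both libraries (25%, 8.66 to 49.1), and in 15 of the other 94 promoters under 50% repeated without a peak (16.0%, 9.22 to 24.95). The intervals of the 18 and the 20 overlap. Among all CpG-rich promoters the share was 11.0%. The following lines give the site nearest the 5′ end of each of the 10 germline genes and of the 3 Hox genes that had one, on the strand of the gene, with CACGTG in capitals and 10 bases on either side. They are shown so that the position and the flanks of the sites can be compared.
Tdrd1, chr19:56826188-56826213, + strand: gggctgcgcgCACGTGggagtaaact
Hormad1, chr3:95559647-95559672, + strand: gcgcactgcgCACGTGctgaccggag
Sycp3, chr10:88459534-88459559, + strand: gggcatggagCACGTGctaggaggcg
Tex12, chr9:50561346-50561371, − strand: gcgagactgtCACGTGgctcgcgcgc
Fkbp6, chr5:135350066-135350091, − strand: gtctatcgatCACGTGccgtttctct
Slc25a31, chr3:40708768-40708793, + strand: caactggaaaCACGTGttatggtcac
Sycp1, chr3:102936179-102936204, − strand: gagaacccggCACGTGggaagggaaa
Stk31, chr6:49395474-49395499, + strand: gccggccaccCACGTGaccagggctg
Mov10l1, chr15:88982738-88982763, + strand: catgctccttCACGTGctaaccgcca
Mael, chr1:166238952-166238977, − strand: ccaggcctacCACGTGacaatccccg
Hoxc12, chr15:102936745-102936770, + strand: cggtagcgccCACGTGagtagagcgg
Hoxc11, chr15:102954399-102954424, + strand: tactttggatCACGTGctcggggaga
Hoxb7, chr11:96286591-96286616, + strand: gggccggggtCACGTGgtcagaagag
The first base of the motif lay 11 bp upstream of the 5′ end in Tdrd1, 20 in Hormad1, 25 in Sycp3, 36 in Tex12 and 37 in Fkbp6. It lay 77 bp upstream in Slc25a31, 94 in Sycp1, 120 in Stk31, 161 in Mov10l1 and 220 in Mael. Sycp3, Hormad1 and Fkbp6 hold a second site each. Over all promoters under 50% repeated without a peak there were 32 sites in 25 genes, 22 of them 1 to 100 bp upstream, with a median of 36.5 bp.

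The E-box share differed from that of open promoters across the whole set of 112 as well. CACGTG was in 25 of the 112 promoters (22.3%, interval 14.996 to 31.2) and in 10.8% (10.2 to 11.4) of the 11046 with a peak. In bins of CpG ratio the shares were 19.23% (10 of 52, interval 9.63 to 32.5) against 9.70% between 0.5 and 0.6, and 22.2% (8 of 36, 10.1 to 39.2) against 9.95% between 0.6 and 0.7. Between 0.7 and 0.8 they were 26.3% (5 of 19, 9.15 to 51.2) against 10.9%. The open share lay within the interval in the lowest and the highest of these bins. With the germline list and Hox genes left out it was 12 of 84 (14.3%, 7.61 to 23.6), whose interval takes in the share at open promoters. The 84 still hold germ cell genes that are not on the list, among them Spata16, which has the E-box. They are therefore not a set free of germline genes. Among the 16 palindromes of 6 bases with CG at their centre, CACGTG had the third highest ratio of the 2 shares, 2.06. The palindromes above it were seen in 4 and 3 promoters only. Comparing palindromes was a choice made after the shares had been seen.

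The other motifs differed in both directions. The letters searched were GGGCGG for Sp factors, TCCCGC for E2F, CCGGAAG for ETS factors, CCAAT for NF-Y, TGACG and TGACGTCA for CREB, which overlap each other, AAGATGGC for YY1, the long palindrome known for NRF1, TATAAA for the TATA box and CCCTC for the core of the CTCF site. GGGCGG was in 35.7% (26.9 to 45.3) of the 112 promoters and in 68.6% of the 11046, and in 68.0% of all CpG-rich promoters. The E2F letters were in 25.9% against 39.7%, and in 39.3% of all CpG-rich promoters. In bins of CpG ratio the E2F shares were 15.4% (8 of 52, interval 6.88 to 28.1) against 26.2% between 0.5 and 0.6. They were 33.3% against 33.7% between 0.6 and 0.7, and 42.1% against 41.2% between 0.7 and 0.8. The open share lay within the interval in each of these bins. TATAAA went the other way, at 20.5% (13.5 to 29.2) against 6.42%, and in 6.67% of all CpG-rich promoters. It was not particular to these promoters: the 5277 CpG-poor genes without a peak had it at 25.5%, and all autosomal protein-coding genes at 12.7%. Those CpG-poor genes, repeated windows included, had GGGCGG at 6.59%. CCAAT, at 39.3% and 38.0%, was nearly equal and was in 38.0% of all CpG-rich promoters. The YY1 letters, at 5.36% against 4.45%, and the NRF1 site, at 3.57% against 2.23%, were rare in both kinds of promoter, and the open share lay within the interval of the 112. Lower without a peak were TGACG, at 22.3% against 33.6%, and CCCTC, at 58.0% against 76.5%. Over all CpG-rich promoters these stood at 33.5% and 76.2%. CCGGAAG, at 10.7% (5.66 to 17.97) against 17.95%, and TGACGTCA, at 1.79% (0.217 to 6.30) against 3.80%, were lower too, with the open share inside the interval. GC content moves with these letters. In the lowest CpG bin GGGCGG was in 21.2% against 54.0%, in the next in 52.8% against 61.9% and in the third in 47.4% against 69.7%. TATAAA was in 21.2% against 9.01%, 22.2% against 6.99% and, on 2 of 19 promoters, 10.5% against 6.62%. The part of GC content in these differences was not tested.

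**Figure D4:**
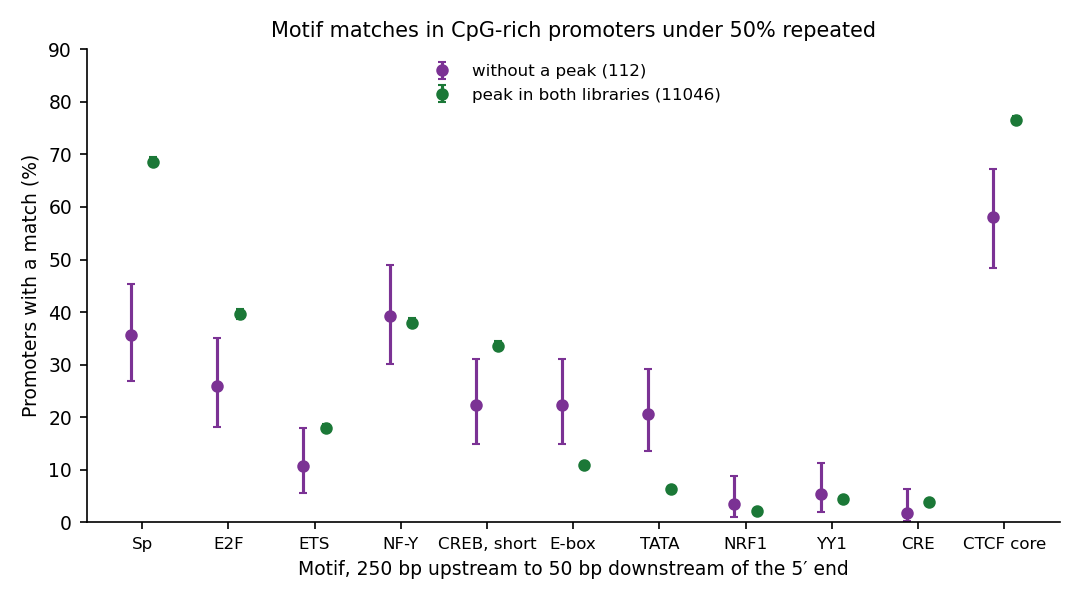
Percent of CpG-rich promoters under 50% repeated with each motif (y axis), for 112 without a peak (purple) and 11046 with a peak in both libraries (green), with exact 95% intervals. The purple point lies above the green with separate intervals for the E-box and TATA, and below it for Sp, E2F, the short CREB letters and the CTCF core.

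Within the germline list the E2F letters TCCCGC were in 10 of the 18 promoters without a peak (55.6%) and in 8 of the 20 with one (40.0%). Either CACGTG or TCCCGC was in 14 of the 18 (77.8%, 52.4 to 93.6) and in 13 of the 20 (65.0%, 40.8 to 84.6). Both together were in 6 of the 18, namely Slc25a31, Sycp1, Hormad1, Mael, Tex12 and Sycp3, and in none of the 20 (0%, interval up to 16.8). Over the 11046 open promoters either was in 46.1% and both in 4.37%, so the 0 of 20 does not stand apart from open promoters in general. Neither was present in Asz1, Sohlh2, Syce1 and Rnf17. A match describes the letters of the promoter and is not a bound site.

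Hox genes, which give positional identity along the body axis, formed the next group. Of 32 CpG-rich Hox genes, 10 had no peak (31.25%, interval 16.1 to 50.01), beside 1.71% of all CpG-rich genes. Another 16 had a peak in both libraries and 6 in a single library. The 10 without a peak were Hoxa3 and Hoxa6, Hoxb7, Hoxc6, Hoxc8, Hoxc9, Hoxc11 and Hoxc12, and Hoxd11 and Hoxd12. They come from all 4 Hox clusters. With peaks counted within 2 kb of a TSS in place of 1 kb, 5 Hox genes had none. Hoxc12 had a CpG ratio of 0.891, the highest of the 112 promoters, and 68 CpGs in its window.

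Peaks were close to most of these Hox genes. The nearest lay at a median of 2547.5 bp in replicate 1 and 2410 bp in replicate 2, between 1019 bp at Hoxc6 and 6339 bp at Hoxc12. Hoxa3 had peaks at 1310 bp in both libraries, and Hoxd12 at 1828 and 1808 bp. Hoxc11 differed between the libraries, at 4402 and 1749 bp, as did Hoxd11, at 2173 and 4073 bp. The nearest peaks of Hoxa3 and Hoxa6 ranked at the 93.2nd percentile in replicate 1 and the 95.9th in replicate 2, so high-ranked peaks lay between promoters without one. Runs of neighbours without a peak were Hoxa6, Hoxa3 and the readthrough model Gm28308 on chromosome 6 and Hoxc9, Hoxc8 and Hoxc6 on chromosome 15. Hoxa3 has 4 annotated TSSs, and its window lies at the outermost. That window overlaps the window of Gm28308, so they are not separate regions. Hoxa5, with the highest ratio of the listed Hox genes at 0.9955, had peaks in both libraries at ranks 84.1 and 76.0. The Hox genes with a peak in 1 library alone were Hoxd3, Hoxd4 and Hoxb8 (replicate 1) and Hoxa9, Hoxa13 and Hoxb9 (replicate 2).

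Developmental transcription factors of other body regions mostly had peaks. Of 86 CpG-rich genes on that list, 2 had no peak (2.33%, interval 0.283 to 8.15), beside the 1.71% of all CpG-rich genes. The count depends on the library: without replicate 2 it was 7 of 86, when 250 of all 11386 CpG-rich genes had no peak. They were Sox18, a regulator of vessel and lymphatic endothelium, with nearest peaks at 1936 and 1956 bp, and T, which encodes the mesoderm factor brachyury, at 10878 and 4878 bp. Another 6 had a peak in 1 library alone: Foxa2, Pax7, Pdx1, Cdx1 and Tlx1 in replicate 2 and Cdx2 in replicate 1. Their ranks lay between 56.5 and 75.4. Fev, a factor of serotonin neurons that is not on the list, was also without a peak, with the nearest at 2143 and 1983 bp.

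**Figure D5:**
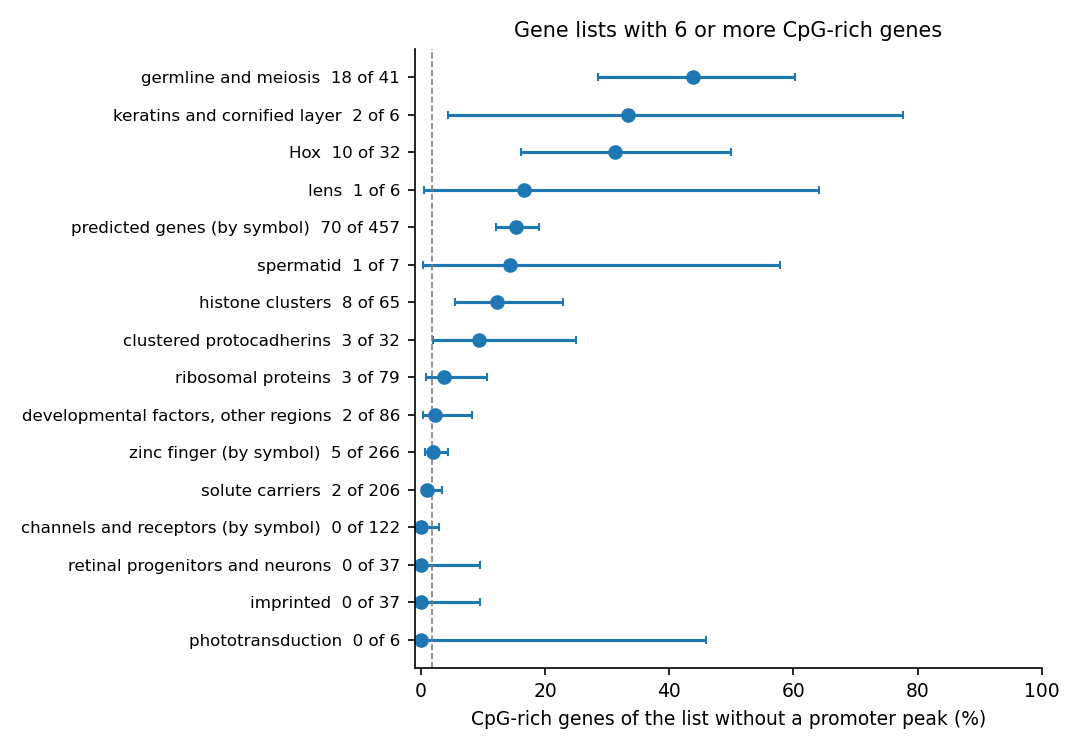
Percent of the CpG-rich genes of each list without a promoter peak (x axis), with exact 95% intervals, for lists with 6 or more CpG-rich genes. The dashed line is the 1.71% of all CpG-rich genes. The germline list stands at 43.9% and Hox at 31.25%, while the retinal list stands at 0%.

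Clustered protocadherins, adhesion proteins of neurons of which each cell uses a few, had 3 of 32 CpG-rich promoters without a peak (9.38%, interval 1.98 to 25.02). Over all CpG-rich genes the share was 1.71%. The 3 protocadherins were the alpha genes Pcdha1, Pcdha5 and Pcdha8, with nearest peaks between 5305 and 8811 bp. A further 6 genes of the clusters had a peak in replicate 2 alone, at ranks from 6.04 to 50.3. Without replicate 2, 9 of the 32 had no peak.

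Smaller lists add single genes. The keratins of the inner root sheath Krt27 and Krt28 were 2 of 6 CpG-rich genes on their list. Cryga, a lens crystallin, was 1 of 6, with nearest peaks at 8803 and 6543 bp, and Spata16, a protein of the spermatid acrosome, was 1 of 7. Ribosomal protein genes gave 3 of 79, Rpl10l, Rpl39l and Rps12-ps3, of which Rpl10l and Rpl39l are testis-type paralogs. Zinc finger genes gave 5 of 266 (1.88%) and solute carriers 2 of 206 (0.971%), beside the 1.71% of all CpG-rich genes. The intervals of these lists and of the ribosomal list take in that share. None was found among 37 imprinted genes (interval up to 9.49%), 37 genes of retinal progenitors and neurons (up to 9.49%), 122 channel and receptor genes (up to 2.98%) or 6 phototransduction genes (up to 45.9%). These intervals also take in 1.71%, so the lists without a member do not stand apart from CpG-rich genes in general.

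Apart from the germline list and the Hox, histone and protocadherin genes, 58 promoters under 50% repeated belonged to named genes. These include Sox18, T and the single genes above. Another 21 belonged to genes with predicted or clone names, here Gm, Rik and clone accession symbols. The highest CpG ratios among named genes with under 10% repeated sequence were those of Hoxc12, Zfp541 (0.853), Hoxb7 (0.834), Sfi1 (0.816) and Hsf5 (0.788). Zfp541 encodes a chromatin protein of spermatocytes, and its nearest peak lay at 5069 bp in both libraries. Rspo1, a Wnt signal enhancer with a role in ovary development, followed at 0.783, with peaks at 2345 and 2106 bp.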

How the data were processed

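DNase-seq peaks and hotspots of 2 libraries of retina at embryonic day 14.5 were used. The authors made both on mm10 and separately for each library, per the file lists. Which aligner and which caller they used is not given in the sources used here. Their deposited score of a peak, from 1 to 150 for peaks of 150 bp, has no stated meaning and was used only to rank peaks within a library. Hotspots carry the authors' −log10 false discovery rate, with a ceiling of 100. Exact duplicate lines (34 and 56) were removed.

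Genes and TSSs came from GENCODE release M21 and letters from the RefSeq FASTA of GRCm38. A peak or hotspot counted when it overlapped the window by at least 1 bp. Stretches of 32 bases were counted on both strands over the 66 sequences of the primary assembly. The code was tested on simulated data. Python 3.11.15, numpy 2.4.6, pandas 2.3.3, scipy 1.17.1, numba 0.67.0 and matplotlib 3.10.9 were used.

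The members, the 21 gene lists, the motifs and the comparisons were chosen with earlier results of these data known. There is 1 group, so no test between conditions exists and no p-value was computed. Exact Clopper-Pearson 95% intervals cover counting error only, and depth is unknown. Alternatives were other CpG minimums, windows, TSS sets and peak filters, each library left out, and other hotspot limits. RefSeq starts and the palindromes were added after the data were seen. Named genes follow a rule: up to 6 members of each list and 10 others by CpG ratio, those with a hotspot, 5 on each side of both limits, the 5 farthest from a peak, and runs of at least 3. The germline, Hox and histone members beyond 6 and some genes outside the lists were named after their values were seen.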

Additional observations from a re-analysis of the deposited data

How the results depend on the processing

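The number of CpG-rich promoters without a peak was 195. It was 122 at a CpG minimum of 0.6, 102 with a GC content of 50% or more as well, 34 at 0.75, and 112 without windows of repeated sequence. Under the other alternatives and with RefSeq starts added it stayed within 1.5 times of 195. Leaving out 1 library gave 213 to 250. The hotspot share of 2.05% became 0.513% (1 gene, Hsf5) when 150 bp had to overlap. It became 30.8% when only peaks above the median score counted, which adds promoters with weak peaks. The median GC content of 55.0% became 56.3% at the CpG minimum of 0.6, and 55.5% to 55.6% without 1 library. The median repeated share of 22.5% was 52.2% at the minimum of 0.6 and 42.2% with peaks counted within 2 kb, and without 1 library it ranged from 8.04% to 16.8%. The E-box share of all 195, 19.5%, was 31.8% in the window of 500 bp on either side, where open promoters reached 22.3%. The germline count of 18 stayed within 1.5 times, and the Hox count of 10 became 5 within 2 kb. Over 10 other motifs 42 of 50 values, and over 19 other lists 62 of 76, stayed within the interval or within 1.5 times. The wider motif window and lists of few members gave the exceptions. No paired analysis was possible because there is only 1 group. Depth is unknown, so no detection limit can be given.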
